A study of Rattus norvegicus with 8 samples.

Results

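Tropomyosins and smooth muscle contractile genes were followed in the periodontal ligament (PDL), the fibrous tissue that holds a tooth in its socket. The 10 genes were taken from a list of symbols chosen with earlier results of these data known. They were Tpm1, Tpm2, Acta2, Tagln, Cnn1, Myl9, Mylk, Cald1, Srf and Myh11, all found among 17337 genes of the deposited count table. The samples were laser-captured cervical PDL of untreated rats (Rattus norvegicus), 4 animals at postnatal day 18 (P18) and 4 at postnatal day 28 (P28), sequenced with a low-input kit. Strain and sex are not given in the labels, no animal carries a stated transgene, and the design text places the establishment of occlusal contact between the 2 ages. Each library holds all cells of a capture, so that fewer cells of a type and less RNA per cell cannot be told apart. Nothing in the labels says whether animals of an age came from separate litters, so p-values measure the spread between these animals.

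Contractile cells shorten when myosin pulls on actin filaments. Tropomyosin lies along the filament and sets which myosins and actin-binding proteins can reach it, calponin and caldesmon restrain the motor, and phosphorylation of the regulatory light chain by myosin light chain kinase switches it on. Serum response factor, the product of Srf, binds a DNA element called the CArG box in front of many of these genes. In fibroblasts the same genes mark tension-bearing stress fibres, and Acta2 is the usual marker of myofibroblasts. In vessel walls they mark smooth muscle cells and pericytes, of which Myh11 is the most restricted to smooth muscle.

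The sequences in front of Acta2 and Srf are shown because they hold a CArG box (Srf) or CArG-like elements (Acta2). These 2 members had fold changes of opposite sign, and neither passed the test below. They come from a RefSeq promoter table (rat build GRCr8), which had entries for 7 of the 10 members. Tagln, Myl9 and Myh11 had none. The 250 bases before the Acta2 start lie at chr1:241172504-241172753 on the minus strand. Capitals mark GGAATG, the reverse of the CATTCC element bound by TEAD factors, and 2 CArG-like elements in which 1 of the 6 core bases is not A or T.
Acta2: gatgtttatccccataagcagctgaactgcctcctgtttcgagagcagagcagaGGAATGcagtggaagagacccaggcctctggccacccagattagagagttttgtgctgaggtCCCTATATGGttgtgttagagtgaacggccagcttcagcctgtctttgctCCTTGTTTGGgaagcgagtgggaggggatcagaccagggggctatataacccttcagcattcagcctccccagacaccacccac
The Srf promoter held 2 matches to the full CArG box, beginning 81 and 61 bases before the start on the plus strand. Windows of 30 bases around them, with the match in capitals, lie at chr9:21923985-21924014 and chr9:21924005-21924034.
Srf, first: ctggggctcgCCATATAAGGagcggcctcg
Srf, second: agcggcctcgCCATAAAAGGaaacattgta
The window of Tpm1 at chr8:76543429-76543458 on the minus strand held GGAATG, 31 bases before the start, and no CArG box.
Tpm1: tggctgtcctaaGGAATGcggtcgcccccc

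Over all 33469 promoters of the table, both strands searched over 250 bases, 1.5% held a CArG box, 6.84% a CArG-like element and 12.1% a CATTCC element. Among the 7 members with an entry, 1 (Srf) held a CArG box, 1 (Acta2) a CArG-like element and 4 (Tpm1, Acta2, Mylk and Cald1) a CATTCC element. None of these searches found an element in front of Tpm2 or Cnn1. Outside the members, Tpm3 held CArG-like elements 66 and 212 bases before separate starts. A further Tpm3 start and that of Tpm4 had no match. A match describes letters in this window only, on a build other than the one used for counting.

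Of the 10 members, 1 fell with age, 0 rose, and 9 did not pass the test. Tpm1 was the member that fell (edgeR quasi-likelihood test, Benjamini-Hochberg adjusted p under 0.05 over 10472 tested genes, which all 10 members were among). Across all tested genes 0.42% were called lower and 0.516% higher. For Tpm1 and Tagln every P28 library lay below every P18 library, and for Srf every P28 library lay above. That compares with 5.54% of tested genes lower without overlap and 4.91% higher without overlap. At an unadjusted p under 0.05, 3 members were lower (Tpm1, Acta2 and Tagln) and 1 higher (Srf), where the shares over all genes were 7.1% and 7.45%. The members and the lists below were chosen with earlier results of these data known, so comparisons with these shares only describe them and test nothing. The median log2 fold change (P28 over P18) was -0.22 over the members and 0.007 over all tested genes. The members together held 0.345% to 0.430% of a library's counts at P18 and 0.244% to 0.274% at P28. Tpm1 had the highest mean of the members at P18 (1383 CPM, against 632 CPM at P28), so this share does not describe each member.

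**Figure D1:**
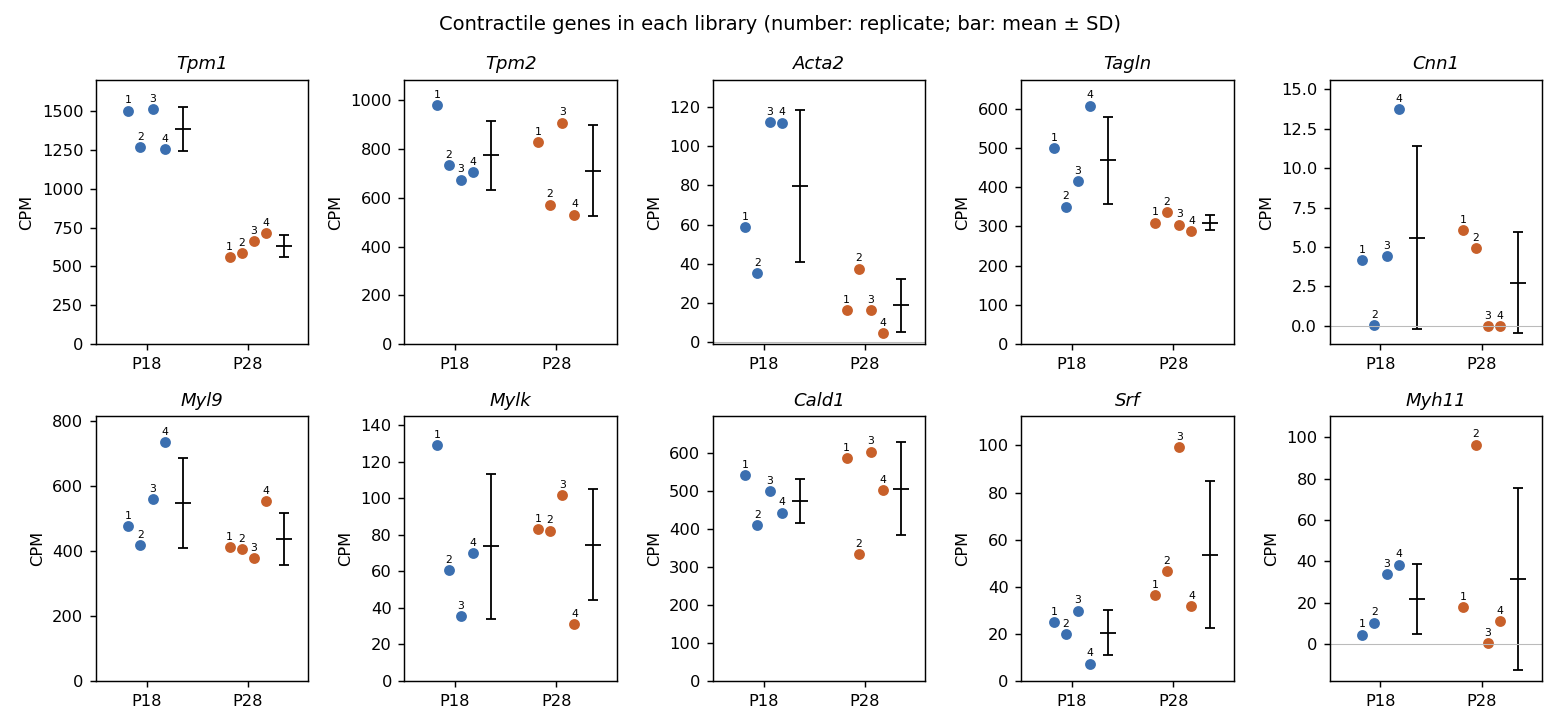
Level of each of the 10 genes in CPM (library-scaled counts, vertical axis, linear, one scale per gene) in the 4 P18 and 4 P28 libraries, each point a library numbered by replicate, with the mean and SD beside it. Tpm1 separates the ages with 1252 to 1512 CPM at P18 and 562 to 716 CPM at P28, while Tpm2, Myl9, Mylk and Cald1 overlap.

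Libraries held 5252693 to 26645656 counts, the shallowest being P28 replicate 4. That library stood apart, with correlations across genes of 0.750 to 0.766 with the other P28 libraries, against 0.813 to 0.827 among those (log2 CPM, genes not being independent replicates). Levels are given as CPM, counts scaled to library size with edgeR's TMM factors. For a gene with 0 counts, a floor of 3 counts is quoted, or 0.108 CPM at the greatest depth and 0.624 CPM at the least. The floor replaced no count in levels, means, sums or fits. The 95% counting interval, given for Acta2 below, is wider and reaches 3.69 counts at a count of 0. Ligament fibroblast markers (9 of 9 in the table) summed to 96140 to 137500 CPM at P18 and 138100 to 196200 CPM at P28, with none at 0 in any library. Col1a2 was counted at means of only 16.0 and 29.1 CPM, beside 53320 and 72320 CPM for Col1a1, so levels of single genes in this table can be uncertain. Of these 9, 1 was called higher (Fmod, 44.1 ± 40.4 CPM at P18 and 345 ± 62.2 CPM at P28) and 1 lower (Tnmd, 560 ± 119 and 104 ± 36.9 CPM), so the sum, most of it Col1a1 and Col3a1, does not describe each marker. Skeletal muscle markers, whose cells also use Tpm1 and Tpm2, summed to 3.82 to 11.8 CPM at P18 and 4.89 to 79.9 CPM at P28, the highest in P28 replicate 1. Within that list the troponin gene Tnnc2 lay at 26.8 CPM in P28 replicate 1 and at 0 counts in all P18 libraries.

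Markers of other cells were read in the same libraries. The 8 erythroid and neutrophil markers in the table summed to 418 to 1116 CPM at P18 and 96.8 to 295 CPM at P28, without overlap. All 7 tested had a log2 fold change below 0 and edgeR called 0 (2 at an unadjusted p under 0.05, and Alas2 by DESeq2, voom and edgeR 4). Osteoclast markers (7 in the table) summed to 1512 to 1741 CPM at P18 and 1105 to 7933 CPM at P28. All 5 tested had a log2 fold change above 0, with Acp5 called higher (edgeR adjusted p = 0.0494), though voom called none of them. Acp5 lay at 57.5 to 131 CPM at P18 and at 1555, 146.5, 2632 and 235 CPM in P28 replicates 1 to 4. Enamel organ and epithelial markers (8 in the table) summed to 31.2 to 3399 and 46.0 to 3621 CPM. Of 7 tested, 4 had a log2 fold change above 0 and 3 below, with the enamel genes Ambn and Amtn called lower. Neither was called by voom, and edgeR 4 called Ambn but not Amtn. The keratin genes Krt5 and Krt14 stood at 2.73 ± 1.04 and 2.41 ± 1.17 on the log2 scale without passing (edgeR adjusted p = 0.242 and 0.371). Ambn ranged from 9.72 to 2329 CPM in the younger animals and from 1.06 to 4.58 CPM in the older. The part of these cells in the differences of Tpm1 and the other members was not tested.

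Tpm1 encodes the alpha-tropomyosin that stabilises actin filaments in muscle and, as other isoforms, in stress fibres. It lay at 1502, 1268, 1512 and 1252 CPM in P18 replicates 1 to 4 and at 562, 586, 663 and 716 CPM in P28 replicates 1 to 4. Every P28 library was below every P18 library, and the spread within each age was small beside the gap, at 10.3% of the mean at P18 and 11.2% at P28. The mean, 1383 ± 143 CPM in P18 and 632 ± 70.7 CPM in P28 libraries (SD, n = 4 per age), fell 2.19-fold, with a log2 fold change of -1.13 ± 0.17 (SE, edgeR adjusted p = 0.0153). The call ended without P18 replicate 2 (adjusted p = 0.0585), P18 replicate 3 (0.0605) or P28 replicate 1 (0.0743), while the log2 fold change stayed between -1.19 and -1.08 whichever of the 8 libraries was left out (-1.19, adjusted p = 0.0128, without P28 replicate 4). Counts of a gene pool its transcripts, so which tropomyosin isoform was lower cannot be told.

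Tpm2 encodes beta-tropomyosin, a close relative used in the same filaments. It lay at 980, 734, 674 and 706 CPM in P18 replicates 1 to 4 and at 828, 572, 908 and 531 CPM in P28 replicates 1 to 4. The ages overlapped, with P28 replicates 1 and 3 above 3 of the 4 P18 libraries. The log2 fold change was -0.12 ± 0.22 (edgeR adjusted p = 0.849). The log2 ratio of Tpm1 to Tpm2 within a library, which does not depend on library scaling, was 0.85 ± 0.23 at P18 and -0.14 ± 0.46 at P28 (SD, n = 4 per age; exact permutation p = 0.0286, adjusted over 3 ratios 0.0857). All 4 P28 ratios (-0.56, 0.04, -0.45 and 0.43) were below the lowest P18 ratio (0.62). The unadjusted p is the smallest that 4 against 4 libraries allow, and the difference did not pass after adjustment.

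The other tropomyosin genes come from a list of 10 thin filament partners, 7 of them tested, of which 1 was called lower (Tpm4) and 0 higher. Tpm4, a tropomyosin of non-muscle cells, lay at 623, 748, 875 and 808 CPM in P18 replicates 1 to 4 and at 355, 395, 244 and 383 CPM in P28 replicates 1 to 4. The ages did not overlap. Its log2 fold change was -1.15 ± 0.20 (edgeR adjusted p = 0.0264). The call ended when any of 5 libraries was left out, namely replicate 2, 3 or 4 of P18 and replicate 1 or 3 of P28 (highest adjusted p 0.0994). It also ended with the replicate number as a block (-1.16, edgeR adjusted p = 0.0811). That number marks different animals at the 2 ages, and the block leaves fewer degrees of freedom. Tpm3, also widely used in non-muscle cells, lay at 253, 267, 296 and 293 CPM at P18 and at 175, 244, 184 and 179 CPM at P28 in replicates 1 to 4, again without overlap. It did not pass the test (log2 fold change -0.50 ± 0.18, edgeR adjusted p = 0.218). In the same list Tagln2, a transgelin of non-muscle cells, was higher in every P28 library (1376 to 1436 CPM) than in any P18 library (1112 to 1302 CPM) without passing (0.25 ± 0.15 on the log2 scale, edgeR adjusted p = 0.491), where 4.91% of all tested genes were higher without overlap. Among 4 tropomyosin genes, 3 had every P28 library below every P18 library and Tpm2 did not, where 5.54% of all tested genes were lower without overlap. Cnn3, a calponin of non-muscle cells, stood at -0.64 ± 0.25 on the log2 scale (edgeR adjusted p = 0.256; 0.0423 without P28 replicate 4).

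**Figure D2:**
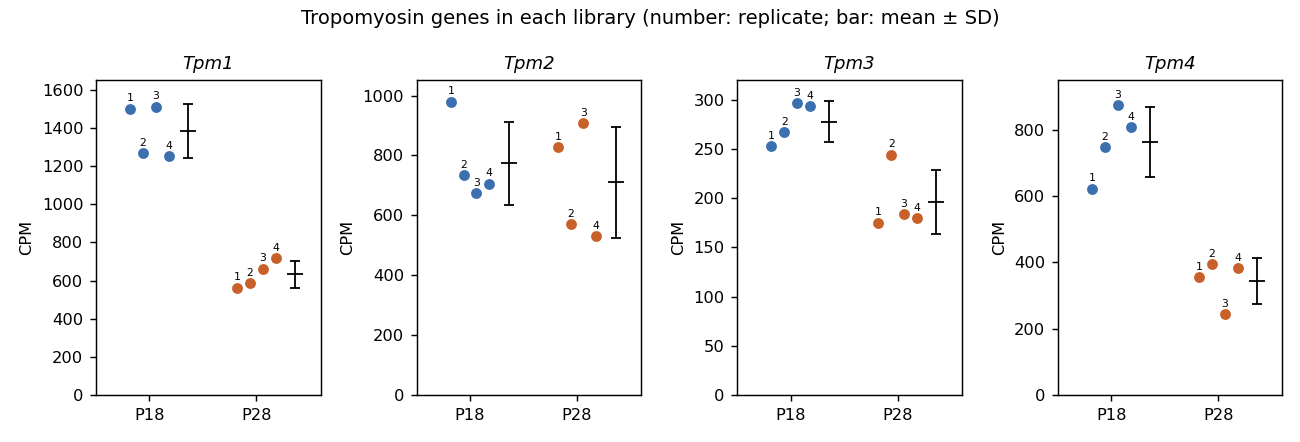
Levels of the 4 tropomyosin genes in CPM (vertical axis, from 0, one scale per gene) in the P18 and P28 libraries, each point a library numbered by replicate, with mean and SD. For Tpm1, Tpm3 and Tpm4 the points of the ages do not overlap, whereas for Tpm2 the P28 libraries (531 to 908 CPM) span most of the P18 range (674 to 980 CPM).

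Acta2 encodes smooth muscle alpha-actin. It lay at 58.8, 35.4, 112 and 112 CPM in P18 replicates 1 to 4 and at 16.4, 37.6, 16.5 and 4.79 CPM in P28 replicates 1 to 4. P18 replicates 3 and 4 were highest and P28 replicate 4 lowest, and only P28 replicate 2 reached into the P18 range. The lowest value rests on 23 counts, with a 95% counting interval of 3.03 to 7.18 CPM. The means were 79.6 ± 38.7 and 18.9 ± 13.7 CPM (SD, n = 4 per age), and the log2 fold change, -2.07 ± 0.56, did not pass the test (edgeR adjusted p = 0.105). It passed without P28 replicate 2 (-2.64, adjusted p = 0.0486), in the DESeq2 Wald test (adjusted p = 0.00732, where 2.58% of genes were called lower) and with the quasi-likelihood dispersion of edgeR 4 (0.0358, 1.57% called lower). Leaving out any of the other 7 libraries gave no call, and without P28 replicate 4 the value was -1.76 (adjusted p = 0.0911).

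Other actin genes bear on that value, since they encode closely similar proteins. How any reads shared between these genes were counted is not given in the sources used here. Of 5 listed actin isoforms, 4 were tested and edgeR called 0 (1 at an unadjusted p under 0.05, Actb, which the DESeq2 Wald test and voom also called). Actb, the main cytoplasmic actin, lay at 5727, 7841, 8723 and 9820 CPM at P18 and at 4507, 4560, 3126 and 6938 CPM at P28 in replicates 1 to 4. Its log2 fold change was -0.75 ± 0.25 (edgeR adjusted p = 0.179; 0.0459 without P28 replicate 4, 0.0478 in the DESeq2 Wald test and 0.0466 with voom and quality weights). Actg2, the smooth muscle gamma-actin, had one of -0.52 ± 0.56 (adjusted p = 0.720), and Acta1, of skeletal muscle, one of 0.87 ± 1.31 at a mean of 1.00 CPM at P18 and 1.83 CPM at P28. Actg1, which nearly all cells use, was counted at only 18.0 ± 2.54 and 15.1 ± 1.37 CPM, so values of single actin genes are uncertain here.

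Tagln encodes transgelin, an actin-bundling protein of smooth muscle and stretched fibroblasts. It lay at 499, 350, 415 and 607 CPM in P18 replicates 1 to 4 and at 310, 335, 304 and 288 CPM in P28 replicates 1 to 4. The ages did not overlap, though P18 replicate 2 and P28 replicate 2 lay close together, and the P28 libraries varied by 6.37% of their mean against 23.7% at P18. The log2 fold change was -0.60 ± 0.20 (edgeR adjusted p = 0.175). The log2 ratio of Acta2 to Tagln was -2.68 ± 0.64 at P18 and -4.36 ± 1.13 at P28 (exact permutation p = 0.0571, adjusted over 3 ratios 0.0857), and that of Acta2 to Actb was -6.78 ± 0.68 and -8.25 ± 1.55 (exact permutation p = 0.0857, adjusted 0.0857). Neither difference passed. In both ratios P28 replicate 2 lay within the P18 range, as did P28 replicate 3 in the ratio to Actb, and P28 replicate 4 was the lowest library, and without P28 replicate 4 the difference in the ratio of Acta2 to Actb went from -1.47 to -0.74.

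**Figure D3:**
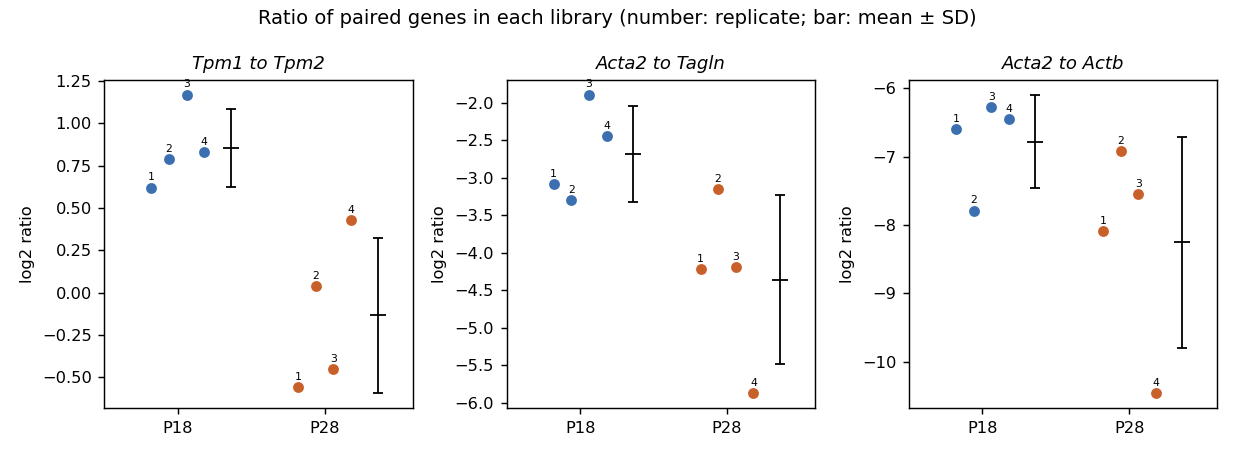
Log2 ratios of Tpm1 to Tpm2, Acta2 to Tagln and Acta2 to Actb (vertical axis, log2 units, one scale per ratio) in each P18 and P28 library, numbered by replicate, with mean and SD. The ratio of Tpm1 to Tpm2 does not overlap between the ages, whereas P28 replicate 2 overlaps the P18 libraries in both ratios of Acta2, and P28 replicate 3 in that to Actb.

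The inhibitors of the actin-myosin cycle did not pass. Cald1, caldesmon, which binds actin and tropomyosin, lay at 542, 411, 499 and 443 CPM at P18 and at 586, 334, 604 and 502 CPM at P28 in replicates 1 to 4. Its log2 fold change was 0.10 ± 0.21 (edgeR adjusted p = 0.882). Cnn1, the calponin of differentiated smooth muscle, had 46, 1, 104 and 270 counts in P18 replicates 1 to 4 and 103, 47, 0 and 0 counts in P28 replicates 1 to 4. It was thus nearly absent from P18 replicate 2 and not detected in P28 replicates 3 and 4. The floor of 3 counts is 0.245 and 0.624 CPM there, and the 95% counting interval reaches 0.301 and 0.7675 CPM. With libraries at or near 0 at both ages, its log2 fold change of -1.02 ± 1.72 (edgeR adjusted p = 0.839) ran from -1.76 to -0.06 when 1 library was left out.

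Among genes of the myosin motor, Myl9 encodes the regulatory light chain of smooth muscle and non-muscle myosin. It lay at 476, 419, 560 and 736 CPM at P18 and at 413, 405, 378 and 555 CPM at P28 in replicates 1 to 4, with -0.32 ± 0.21 on the log2 scale (edgeR adjusted p = 0.535). At P28, 3 of 4 libraries lay below the P18 minimum, and P28 replicate 4 lay within the P18 range. Mylk, the kinase of that light chain, lay at 129, 60.8, 35.4 and 70.0 CPM at P18 and at 83.1, 82.2, 102 and 31.0 CPM at P28, with means of 73.8 ± 39.7 and 74.5 ± 30.3 CPM (log2 fold change 0.02 ± 0.42, adjusted p = 0.993). Of 6 tested chains of myosin II outside the members, 4 had a log2 fold change above 0 and 2 below (median 0.46). None was called by edgeR, DESeq2 or voom, and 1 had an unadjusted edgeR p under 0.05. Myh10, a non-muscle heavy chain, stood at -0.69 ± 0.24 on the log2 scale (edgeR adjusted p = 0.191). Myh14, another non-muscle heavy chain, averaged 0.575 ± 0.449 CPM in P18 and 3.51 ± 2.80 CPM in P28 libraries (2.61 ± 1.41, adjusted p = 0.433), and the light chain gene Myl12b stood at -0.30 ± 0.20 (0.551). Myh9 and Myl6b, also above 0, averaged only 1.26 and 1.96 CPM at P18 and 2.23 and 3.68 CPM at P28. Myl12a, at 671 and 710 CPM, stood at 0.08 ± 0.17. The median of these chains thus rests in part on genes with few counts.

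Of 15 tested genes that control light chain phosphorylation, 0 were called by edgeR, DESeq2 or voom and 2 had an unadjusted edgeR p under 0.05, with 9 log2 fold changes above 0 and 6 below and a median of 0.09. Rock1, a kinase that inhibits myosin phosphatase, was higher in all P28 libraries (89.7 to 123 CPM) than in any P18 library (65.3 to 78.0 CPM), and Calm3, a calmodulin gene, was lower in all P28 libraries (77.1 to 110 CPM) than at P18 (114 to 159 CPM). Neither passed (edgeR adjusted p = 0.263 and 0.187). Calm2, another calmodulin gene, stood at 0.37 ± 0.18 on the log2 scale (0.366). Ppp1r14a, an inhibitor of myosin phosphatase in smooth muscle, had a log2 fold change of -0.83 ± 0.85.

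Srf had the opposite sign to Tpm1, Acta2 and Tagln. It lay at 24.95, 19.9, 29.8 and 7.33 CPM in P18 replicates 1 to 4 and at 36.3, 46.6, 99.4 and 31.8 CPM in P28 replicates 1 to 4. The ages did not overlap, but P28 replicate 4 and P18 replicate 3 nearly met, and P28 replicate 3 was higher than any other library. The log2 fold change was 1.39 ± 0.51 and did not pass (edgeR adjusted p = 0.223), and without P28 replicate 3 it was 0.90 (adjusted p = 0.544).

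**Figure D4:**
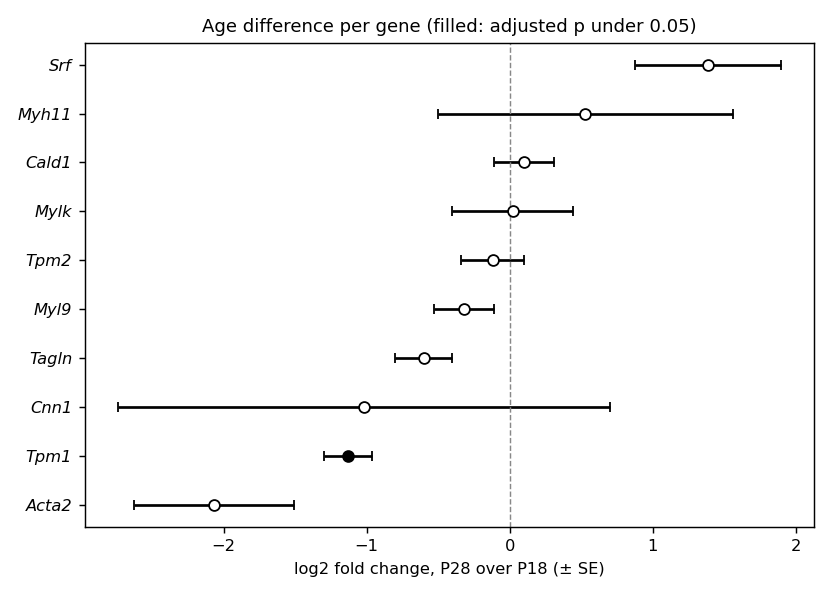
Log2 fold change of each of the 10 genes, P28 over P18 (horizontal axis, log2 units, bars SE from the edgeR fit), ordered by value, with a filled point for an adjusted p under 0.05. Tpm1, at -1.13, is the one filled point, and Acta2 (-2.07) and Srf (1.39) have the largest values with bars clear of 0 among the open points.

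Of 10 listed cofactors of serum response factor, 7 were in the table and 6 tested. Mkl1, Mkl2 and Scai were not matched in the table and are not covered here. None of the 6 tested was called by edgeR (2 at an unadjusted p under 0.05, both lower) or voom, and 1, Fhl2, was called lower by DESeq2 and by edgeR 4. Fhl2, a LIM-domain protein that binds serum response factor, lay at 52.0, 115, 165 and 143 CPM at P18 and at 45.6, 41.5, 58.1 and 60.1 CPM at P28 in replicates 1 to 4, where P18 replicate 1 fell among the P28 values. Its log2 fold change was -1.21 ± 0.33 (edgeR adjusted p = 0.109), and it passed without P18 replicate 1 (0.0412), in the DESeq2 Wald test (0.0237) and with the edgeR 4 dispersion (0.0492). Csrp2, a LIM protein of smooth muscle, had a log2 fold change of -0.76 ± 0.25 and Elk4, an ETS partner of serum response factor, one of 0.65 ± 0.35. Myocd, the smooth muscle coactivator, had 0 counts in all 8 libraries, as did Myl6, a myosin light chain gene that most cells use, so a 0 in this table need not mean that a gene was silent.

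Of 17 tested target genes of serum response factor outside the members, edgeR called 1 lower (Tpm4) and 0 higher (3 higher and 3 lower at an unadjusted p under 0.05), with 8 log2 fold changes above 0, 9 below and a median of -0.02. The DESeq2 Wald test called Tpm4, Fhl2 and Actb lower and Junb higher, voom called Tpm4 and Actb lower and Cyr61 higher, and the edgeR 4 dispersion gave Tpm4 and Fhl2 lower. Junb, an immediate early gene, was higher in every P28 library (80.5 to 181 CPM) than in any P18 library (45.4 to 73.6 CPM). It did not pass in edgeR (log2 fold change 0.94 ± 0.29, adjusted p = 0.143; 0.0499 in the DESeq2 Wald test). The level of Vcl, which encodes vinculin of focal adhesions, was 141 ± 71.8 CPM at the younger age and 138 ± 35.4 CPM at the older.

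Myh11, the smooth muscle myosin heavy chain, had SDs within an age that were larger than the difference between the age means (21.9 ± 16.7 CPM at P18 and 31.6 ± 43.8 CPM at P28). It lay at 4.70, 10.5, 33.7 and 38.4 CPM in P18 replicates 1 to 4 and at 18.0, 96.4, 0.652 and 11.2 CPM in P28 replicates 1 to 4. P28 replicate 2 was highest, and P28 replicate 3, with 8 counts, was lowest. The log2 fold change was 0.53 ± 1.03 (edgeR adjusted p = 0.865), but -1.13 without P28 replicate 2. Of 10 tested other contractile genes of smooth muscle, edgeR called 0 (1 at an unadjusted p under 0.05) and voom 0, 3 had a log2 fold change above 0 and 7 below. Synm, an intermediate filament protein, was higher in all P28 libraries (22.1 to 35.8 CPM) than at P18 (2.09 to 14.1 CPM) without passing (log2 fold change 2.11 ± 0.65, edgeR adjusted p = 0.146), though it passed in the DESeq2 Wald test (0.0210) and with the edgeR 4 dispersion (0.0442). Pdlim3 had 0 counts in P18 replicate 2 and P28 replicates 3 and 4.

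Markers of the vessel wall were in part highest in the same libraries. The 10 mural cell markers, all tested, held 0 calls in edgeR (2 at an unadjusted p under 0.05, both higher, and Cspg4 by DESeq2, voom and edgeR 4), and summed to 651 to 1086 CPM at P18 and 583 to 1272 CPM at P28, highest in P28 replicate 2, with none of them at 0 in any library. The 8 endothelial markers summed to 676 to 989 and 861 to 1447 CPM, again highest in P28 replicate 2. P28 replicate 2 was also the P28 library with the most Acta2 and Myh11. It stood out for other cells too, with the highest enamel organ and epithelial sum (3621 CPM) and the lowest osteoclast sum (1105 CPM) of all libraries. In the P18 libraries, replicates 3 and 4 had more Acta2 and Myh11 than replicates 1 and 2, and 5 of the 10 mural markers showed the same order while 5 did not. As ratios, the widest such gaps were those of Notch3 (62.0 and 55.7 against 7.50 and 7.71 CPM) and Rgs4 (74.8 and 68.2 against 6.69 and 29.6 CPM). At P28, 7 of the 10 mural markers were highest in replicate 2, and Notch3 was highest in replicate 1 (65.6 CPM). The pericyte gene Rgs5 averaged 276 ± 79.6 CPM in P18 and 224 ± 108 CPM in P28 libraries, with a log2 fold change of -0.30 ± 0.31. The part of vessel wall cells in the Acta2 difference was not tested.

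**Figure D5:**
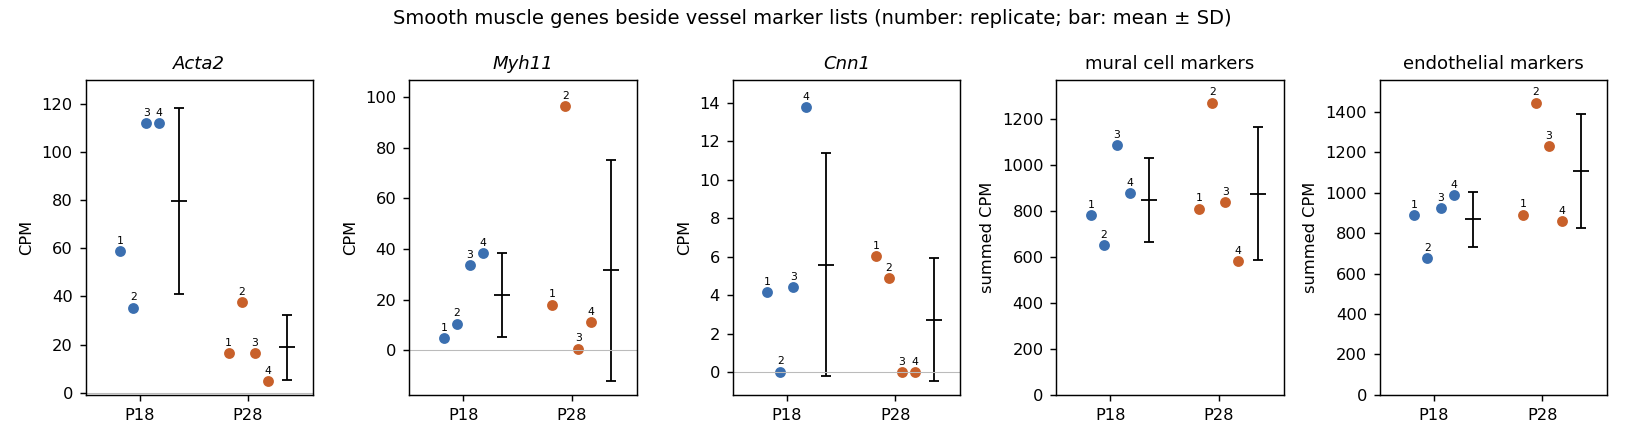
Levels of Acta2, Myh11 and Cnn1 in CPM and summed CPM of 10 mural and 8 endothelial markers (vertical axes, one scale per panel) in each library, numbered by replicate, with mean and SD. P28 replicate 2 is the highest P28 library for Acta2 (37.6 CPM), Myh11 (96.4 CPM) and both marker sums, and the marker sums overlap between the ages.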

How the data were processed

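The authors deposited raw counts per gene symbol (17337 genes), which were used as deposited; STAR 2.5.3a, HTSeq 0.9.1, edgeR 3.16.5 and build rn6 are named in the submitters' processing notes, without roles. For the annotation, strand setting and multiply mapped reads the sources used here give nothing. The table also holds 40 columns of other samples, not used. Animals were grouped by the age label. Genes were tested with edgeR 4.0.16 in R 4.3.3 (glmQLFit with the earlier dispersion setting, legacy, and glmQLFTest, 2-sided, age as the only term, TMM scaling, edgeR's expression filter with a minimum count of 10), and p was adjusted by Benjamini-Hochberg over 10472 genes. The SE is the size of the log2 fold change divided by the root of F. Ratios used log2 CPM with a prior count of 2 and exact permutation tests (2-sided). The fit was tested on simulated counts. Alternatives used DESeq2 1.42.0 and limma 3.58.1.

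The members and lists were chosen with earlier results of these data known. Named from each pathway list were the called genes and the 3 with the lowest p. Vcl, Actg1, Myocd, Tagln2, Cyr61, Notch3, Rgs4, Rgs5, Myl6, Myl6b, Myl12a, Myh9 and the marker genes were added after their values were seen, as were the promoter searches. Of 132 listed symbols outside the members, 8 were not analysed here. Replicate numbers 1 to 4 occur at both ages but mark different animals.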

Additional observations from a re-analysis of the deposited data

How the results depend on the processing

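Limits and settings. With 4 libraries against 4, fold changes had a median SE of 0.49 (log2) and the biological coefficient of variation stood at 0.704, which limits what could be called. Counts were few in P28 replicate 4 for Acta2 (23), Myh11 (54) and Cnn1 (0), though Cnn1 also had 0 counts in the deeper P28 replicate 3. The count of all genes called higher and lower, 54 and 44, was 297 and 263 in the DESeq2 Wald test, 175 and 132 with voom and quality weights, and 198 and 164 with the quasi-likelihood dispersion of edgeR 4, an alternative chosen after seeing the data. Leaving out 1 library gave 4 to 110 higher and 5 to 105 lower. The members called lower, 1 (Tpm1), were 2 (Tpm1 and Acta2) in the DESeq2 Wald test and with the edgeR 4 dispersion, and 0 to 2 leaving out 1 library. Leaving out 1 library, the difference in the ratio of Tpm1 to Tpm2 was -1.17 to -0.84 and that of Acta2 to Tagln -2.08 to -1.18; both passed only without P28 replicate 2 (exact permutation, adjusted p = 0.0429). Signs turned for Tpm2 (-0.27 to 0.01) and Mylk (-0.23 to 0.43), whose log2 fold changes were near 0, and for Myh11 (-1.13 to 0.95 leaving out 1 library, -0.59 with voom, -0.18 with the replicate block). The cause was not tested.

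The replicate numbers did not pair the libraries. Same-numbered libraries correlated at -0.02 to 0.00 in their deviations from the age means, and 0 of 8 correlated best with their own number. With the number as a replicate block, 16 genes were called higher and 10 lower, and 0 members (Tpm1 log2 fold change -1.13, edgeR adjusted p = 0.0562). Permuting age within numbers left the ratio differences at -0.99, -1.68 and -1.47 and cannot give an exact p below 0.125.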

Other observations

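Vessel wall markers had log2 fold changes of both signs. Of 8 tested endothelial markers 3 were above 0 and 5 below, among them Cdh5 at -0.91 ± 0.49, and of 10 mural markers 6 were above 0 and 4 below. Cspg4, the proteoglycan NG2 of pericytes, averaged 34.8 ± 9.31 CPM in P18 and 97.9 ± 38.8 CPM in P28 libraries (SD, n = 4 per age; log2 fold change 1.49 ± 0.34, edgeR adjusted p = 0.0714). The endothelial adhesion gene Pecam1 lay at 133 ± 11.6 and 258 ± 55.3 CPM (0.95 ± 0.20, adjusted p = 0.0518), and Egfl7, secreted by endothelium, at 249 ± 47.1 and 479 ± 159 CPM (0.95 ± 0.25, adjusted p = 0.0958). For these 3, of the 18 markers, every P28 library was above every P18 library, where 4.91% of all tested genes were. None passed in edgeR, and all 3 were called by the DESeq2 Wald test. They were named after their values were seen.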
